A study of Homo sapiens with 28 samples.

Results

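The HOX genes of the 4 human clusters were followed in SK-N-MC cells, an established Ewing sarcoma line, through 8 groups of libraries defined by the induced hairpin and the time. The members were every row of the deposited 48 h table of normalised counts whose gene name is HOX, a cluster letter from A to D and a number, which gave 37 of 35488 genes. HOXA had 11 members, HOXB 9, HOXC 9 and HOXD 8, and HOXB1 and HOXD1 were not analysed here. Values are gene read counts that the authors divided by 1 size factor per library, called normalised counts here, and 33 members entered the tests, which took genes whose mean over the 28 libraries was 10 or more.

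HOX genes encode homeodomain transcription factors that give cells their position along the body axis and along the limbs and genitourinary tract. Within a cluster, the genes of low number lie at the 3' end and are used early and towards the head, and those of high number lie at the 5' end and are used late and towards the tail. Genes of the same number in different clusters are paralogues, and Ewing sarcoma is known for high expression of the posterior genes of the HOXD cluster.

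All 28 libraries came from SK-N-MC cells that carried 1 of 4 hairpins switched on by doxycycline, and every group, the controls included, received 100 ng/ml doxycycline for 24 or 48 h. At each time 5 libraries had shScramble, the control hairpin, 3 had shFLI1, 3 had shCHD4#1 and 3 had shCHD4#2. shFLI1 was used to silence EWS-FLI1, the fusion transcription factor that drives Ewing sarcoma and binds GGAA sequences. shCHD4#1 and shCHD4#2 are a pair of hairpins against CHD4, the ATPase of the NuRD complex, which moves nucleosomes. The series compared gene expression after silencing either one. It rests on 1 cell line, on partial knockdowns and, for the fusion, on 1 hairpin. The labels call the samples biological replicates without naming their cultures, so p-values measure the spread between these libraries.

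Library depth, recovered from the deposited values as whole reads, ranged from 46102707 to 64775441 reads. CHD4 fell from 11550 ± 1236 normalised counts (SD, n = 5) with shScramble to 2989.9 ± 240 (n = 3) with shCHD4#1 and 3075 ± 351 (n = 3) with shCHD4#2 at 24 h. FLI1, whose reads include the part kept in the fusion, fell from 4153 ± 408 to 1856 ± 148 with shFLI1 at 24 h and from 3783 ± 454 to 1669 ± 141 at 48 h. FLI1 was also lower with shCHD4#2 at 48 h, with a log2 fold change of -0.34 (adjusted p = 0.0291). The 48 h shScramble samples carry a genotype label of CHD4 knockdown against their titles, and their CHD4 level was 11605 ± 1563. The 8 Ewing sarcoma markers checked, among them CD99, NKX2-2 and NR0B1, ran from 779 to 14626 normalised counts with shScramble, while CD3E and KRT14, markers of T lymphocytes and keratinocytes, reached at most 2.41 there. Of the fibroblast markers COL1A1 ran from 509 to 1711 with shScramble and LUM reached 17.8, and endothelial CDH5 reached 82.5. Over all groups CDH1 reached 783, PTPRC 333, PDGFRA 285 and LUM 128, from at most 6.54, 53.8, 11.1 and 17.8 with shScramble, and their part in the results was not tested. In 12 libraries, replicates 1 and 2 of each hairpin other than shFLI1, processed pseudogenes took 0.313% to 0.388% of reads, and in the other 16 they took 0.223% to 0.283%. All shFLI1 libraries were of the latter kind. Mitochondrial ribosomal RNA took 22.1% to 22.5% of reads with shFLI1 at 48 h and 16.2% to 18% with shScramble, and its part in the results was not tested. In bulk RNA, fewer cells of a type and less RNA per cell cannot be told apart.

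The clusters lie, in GRCh38 with GENCODE 29 gene models, on chromosome 7 on the minus strand (HOXA), and at chr17:48540894-48729178 on the minus strand (HOXB), chr12:53938765-54056030 on the plus strand (HOXC) and chr2:176092891-176173102 on the plus strand (HOXD). RefSeq promoter windows on GRCh38.p14 were available for 18 of the 37 members. The windows of 3 members are shown because the results below turn on them: HOXD13 was the most abundant member and fell with each knockdown, HOXA13 is its paralogue and had the largest rise with shFLI1 at 24 h, and HOXC4 had the largest rise in the HOXC cluster. Each runs 5' to 3' over the 250 bases before the RefSeq start, with GGAA, or TTCC for GGAA on the other strand, in capitals.
HOXD13, chr2:176092471-176092720, plus strand: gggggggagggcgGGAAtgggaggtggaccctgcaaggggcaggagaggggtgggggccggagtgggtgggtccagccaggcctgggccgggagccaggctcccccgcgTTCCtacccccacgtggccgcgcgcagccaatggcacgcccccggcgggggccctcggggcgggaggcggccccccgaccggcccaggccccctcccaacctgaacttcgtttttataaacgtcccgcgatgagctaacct
HOXA13, chr7:27200092-27200341, minus strand: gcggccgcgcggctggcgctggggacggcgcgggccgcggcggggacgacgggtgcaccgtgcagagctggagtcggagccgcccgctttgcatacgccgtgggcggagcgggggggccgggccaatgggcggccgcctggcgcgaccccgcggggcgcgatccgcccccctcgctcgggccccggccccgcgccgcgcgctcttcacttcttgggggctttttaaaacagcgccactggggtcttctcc
HOXC4, chr12:54016638-54016887, plus strand: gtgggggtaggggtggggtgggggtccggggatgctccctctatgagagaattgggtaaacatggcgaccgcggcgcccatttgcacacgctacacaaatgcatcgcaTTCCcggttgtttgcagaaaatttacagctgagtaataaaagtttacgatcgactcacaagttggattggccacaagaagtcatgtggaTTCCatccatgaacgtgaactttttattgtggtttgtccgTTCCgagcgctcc

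The HOXD13 window held 2 matches to GGAA or TTCC, the HOXA13 window 0 and the HOXC4 window 3, against a median of 3 over 35116 windows of the same length. A match stood in 92.7% of all windows and in a window of 15 of the 18 HOX members, so most promoters of any gene hold these letters. The tandem GGAAGGAA, or TTCCTTCC, stood in 3.06% of all windows and among the HOX members in that of HOXA2. The HOXD13 window had 21 CpG, the HOXA13 window 40 and the HOXC4 window 14, where the median was 11 over all windows and 19 over the HOX windows. HOXC4 and HOXC5 share 1 annotated start, so their windows are identical.

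In the control libraries the HOX transcripts were mostly those of the posterior HOXD genes. Per kilobase of exon at 24 h, HOXD13 stood at 3448 ± 331 normalised counts (SD, n = 5), HOXD10 at 2083 ± 266, HOXD11 at 682 ± 50.02 and HOXD3 at 654 ± 106. HOXD13 was above HOXD10 in every library, and HOXD10 above all other members, whereas the ranges of HOXD11 and HOXD3 overlapped. The order of the first pair was the same at 48 h, with 3207 ± 207 for HOXD13 and 2169 ± 263 for HOXD10.

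The highest member of each other cluster was much lower. HOXB7 stood at 354 ± 148 normalised counts per kilobase, HOXC12 at 224 ± 27.3 and HOXA9 at 105 ± 9.13 in the shScramble libraries at 24 h. HOXA2, a hindbrain and second-arch gene, stood at 1.78 ± 1.05, HOXB8 at 1.14 ± 0.446 and HOXA7 at 0.830 ± 0.541, the lowest levels of the set. From HOXD11 downward nearly every member overlapped its neighbour in the order, so the ranks between them are not resolved. At 24 h the exception was HOXD12, which lay above the next member, HOXB5, in all libraries.

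**Figure D1:**
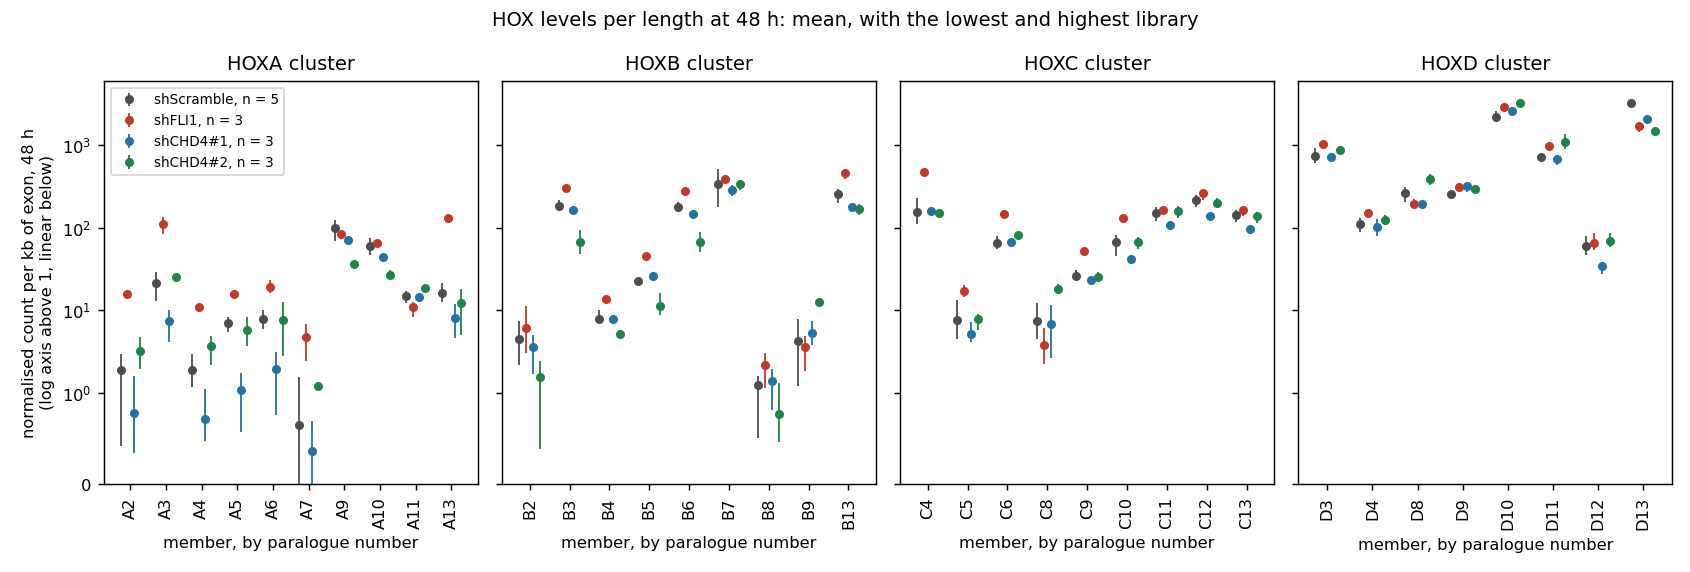
Levels of the HOX members reported here at 48 h in normalised counts per kilobase of exon, arranged by cluster and position, with a point for the mean of each hairpin group and a bar from the lowest to the highest library (log scale above 1, linear below). HOXD13 and HOXD10 lie far above the rest with shScramble, and the HOXD13 points of all 3 knockdown hairpins lie below its shScramble point.

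The HOXD cluster gave 76.3% to 80.4% of the summed HOX level per kilobase in the shScramble libraries at 24 h. With shFLI1 it gave 64.1% to 67.5% at 24 h and 67.3% to 69.1% at 48 h, below every control library. The share of HOXB went from a mean of 10.2% to 16.2%, that of HOXC from 8.5% to 14.3% and that of HOXA from 2.70% to 4.13% at 24 h. The summed HOXD level was 7546 ± 142 with shScramble and 6998 ± 554 with shFLI1. The share of HOXD with the CHD4 hairpins at 48 h was 79.6% to 82.1% with shCHD4#1 and 81.0% to 82.9% with shCHD4#2, beside 76.9% to 80.1% with shScramble.

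With shFLI1, most HOX members rose and the most abundant one, HOXD13, fell. At 24 h, 20 of the 33 tested members were higher and 1 was lower (limma, Benjamini-Hochberg adjusted p under 0.05 over 21025 genes), where 46.7% of all tested genes were called, 24.2% as higher and 22.5% as lower. At 48 h, 20 were higher and 2 lower, where 63.9% of all genes were called, 32.2% as higher and 31.7% as lower. HOXA2, counted as higher at both times, passed the filter on the mean, at 10.5, only through its shFLI1 libraries. The median log2 fold change of the members was 0.73 at 24 h and 0.49 at 48 h, beside 0.00 and 0.01 over all tested genes. Of the members called higher, 17 were the same at both times. The share of all genes called higher at both times was not counted, so the 17 have no baseline. When each library was centred on its median gene, the median over all genes at 48 h went to -0.11, and 18 HOX members were then called higher and 3 lower. Within the 16 libraries with fewer pseudogene reads, a choice made after seeing the data, 22 were higher at each time, with 1 lower at 24 h and 3 at 48 h.

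All 4 clusters held members that rose. At 24 h, 6 of 9 tested HOXA members, 6 of 7 HOXB members, 6 of 9 HOXC members and 2 of 8 HOXD members were higher, with median log2 fold changes of 1.13, 0.88, 0.96 and 0.27. At 48 h the counts were 5, 5, 5 and 5, with medians of 1.13, 0.76, 0.97 and 0.35, and both members called lower were in HOXD. Of all genes 24.2% were higher at 24 h and 32.2% at 48 h, so the HOXD share of 25% at 24 h was near that of all genes. The difference between clusters was not tested.

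By position along the clusters, all 8 tested members of paralogue groups 1 to 4 were higher at 24 h and 7 of 8 at 48 h, with medians of 1.03 and 0.77. HOXA2, which is among them, entered the test only through shFLI1, and HOXA4 and HOXB2 of these groups were not tested. Of groups 5 to 8, 7 of 9 were higher at 24 h and 6 of 9 at 48 h, with 1 lower at 48 h. Of the posterior groups 9 to 13, 5 of 16 were higher and 1 lower at 24 h, and 7 of 16 were higher and 1 lower at 48 h, with medians of 0.27 and 0.23. These posterior shares of 31.25% and 43.75% higher stood beside 24.2% and 32.2% of all genes, less far above them than those of groups 1 to 8. The members called at neither time were HOXC8 and 7 posterior genes: HOXA9, HOXA10, HOXA11, HOXB9, HOXC12, HOXC13 and HOXD12. The share of all genes called at neither time was not counted.

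**Figure D2:**
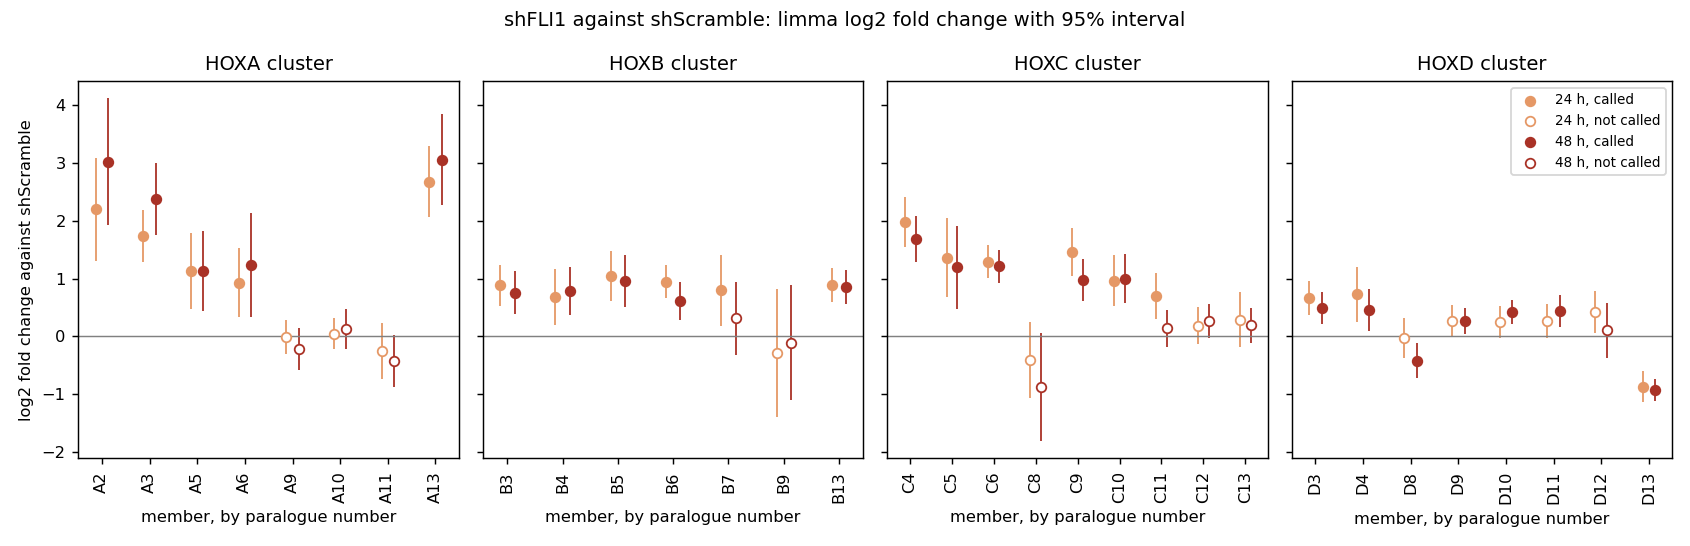
The log2 fold change of shFLI1 against shScramble for the tested HOX members reported here, in genomic order within the clusters, at 24 and 48 h, from limma with 95% intervals, with filled points for adjusted p under 0.05. Points lie above 0 for most of HOXA, HOXB and HOXC, HOXA13 stands highest of its cluster at 2.67 and 3.06, and HOXD13 lies at -0.87 and -0.93.

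HOXD13, a gene of limb and urogenital patterning, stood at 7399.6, 6679, 8279, 7696 and 8559 normalised counts with shScramble at 24 h and at 4482, 4495 and 3679 with shFLI1. At 48 h the values were 6535, 7114, 7693, 7561 and 7013 with shScramble and 4063, 4023 and 3249.9 with shFLI1. Every shFLI1 library was below every control library at both times. limma gave a log2 fold change of -0.87 (SE 0.13, adjusted p = 5.42e-05) at 24 h and -0.93 (SE 0.09, adjusted p = 5.4e-07) at 48 h. HOXD13 exons share no bases with another annotated gene. At 24 h its 2 shScramble libraries with more pseudogene reads were below the other 3, and at 48 h the kinds overlapped.

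HOXA13, the paralogue of HOXD13 and its partner in the distal limb, had the largest log2 fold change of the members at 24 h, and at 48 h its value and that of HOXA2 were close, with an order that changed between alternatives. At 24 h it stood at 98.2, 63.2, 82, 67.5 and 84.3 with shScramble and at 353, 581 and 624 with shFLI1, and at 48 h at 109, 101, 64.1, 63.5 and 68.7 and 645, 661 and 692. The groups did not overlap at either time. limma gave a log2 fold change of 2.67 (SE 0.29, adjusted p = 3.85e-06) and 3.06 (SE 0.37, adjusted p = 4.89e-06). HOXB13, the prostate and tail paralogue, stood at 687, 841, 1019, 945 and 929 with shScramble and 1789, 1663 and 1339 with shFLI1 at 48 h, above every control, with 0.89 (adjusted p = 9.43e-05) at 24 h and 0.85 (adjusted p = 8.53e-05) at 48 h. HOXC13, a hair follicle gene, was not called, with 0.29 (adjusted p = 0.311) and 0.20 (adjusted p = 0.237). Paralogue group 13 thus held a large rise, a smaller rise, a fall and a value that did not pass.

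The 3' HOXA genes rose with it. HOXA3, a pharyngeal arch gene, stood at 114, 80.2, 113, 75.9 and 86.7 with shScramble at 24 h and at 232, 355 and 368 with shFLI1. At 48 h the values were 127, 104, 95.6, 84 and 55.6 and 359, 583 and 495. No shFLI1 library overlapped a control, and the log2 fold change was 1.74 (SE 0.21, adjusted p = 1.09e-05) and 2.37 (SE 0.29, adjusted p = 5.6e-06). HOXA2 rose from 8.34, 1.62, 3.04, 5.27 and 3.61 to 15.5, 22.3 and 28.7 at 24 h and from 7.14, 7.22, 1.02, 5.60 and 2.18 to 37.8, 41.4 and 37.4 at 48 h, with 2.20 (adjusted p = 0.00059) and 3.02 (adjusted p = 0.000126). These groups did not overlap either, but the control values rest on few reads, 22 in all at 24 h and 24 at 48 h, against 61 and 104 with shFLI1. HOXA3 shares 17.9% of its exon bases with other annotated genes, mostly antisense, and no source used here gives the strand setting of the counting, so such reads cannot be told apart.

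HOXA5 and HOXA6 were low. HOXA5, which patterns the lung and thorax, went from 14.8, 12.2, 20.2, 13.7 and 16.9 to 35.2, 35.7 and 33.2 at 24 h and from 10.7, 9.28, 12.2, 14 and 13.1 to 29.5, 25.3 and 26 at 48 h. Its groups did not overlap, with 1.13 (adjusted p = 0.00785) and 1.13 (adjusted p = 0.00705). HOXA6 went from 13, 9.72, 18.2, 11.6 and 13.2 to 20.7, 30.2 and 26.5 at 24 h and from 8.93, 10.3, 10.2, 13.1 and 7.63 to 23.6, 29.9 and 20.8 at 48 h, again without overlap. Its log2 fold change was 0.93 (adjusted p = 0.0136) and 1.23 (adjusted p = 0.0189), and the call was lost without shFLI1 replicate 2 at either time, at 0.81 (adjusted p = 0.0697) and 1.09 (adjusted p = 0.076), and at 24 h also against shScramble replicates 3 to 5 alone, at 0.81 (adjusted p = 0.0522). HOXA6 shares 40.1% of its exon bases with other genes. HOXA9, the highest of its cluster, stood at 322, 304, 323, 283 and 358 with shScramble and 302, 309 and 334 with shFLI1 at 24 h, overlapping, with -0.01 (adjusted p = 0.96) and, at 48 h, -0.22 (adjusted p = 0.283).

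In HOXC, the rise ran from HOXC4 to HOXC6 and took in HOXC9 and HOXC10. HOXC4, a 3' member active in lymphoid and spinal cells, stood at 343, 556, 328, 277 and 273 with shScramble and at 1324, 1331 and 1424 with shFLI1 at 24 h, and at 465, 629, 347, 305 and 339 and 1202, 1285 and 1416 at 48 h. The lowest shFLI1 value was above the highest control at each time. The log2 fold change was 1.98 (SE 0.20, adjusted p = 2.13e-06) and 1.69 (SE 0.19, adjusted p = 2.06e-06). HOXC6 stood at 225, 259, 206, 192 and 207 and 551, 525 and 522 at 24 h and at 254, 280.4, 200.4, 207 and 197 and 488, 546 and 542 at 48 h, without overlap, with 1.29 (adjusted p = 2.46e-06) and 1.21 (adjusted p = 1.85e-06). Other annotated genes, each other included, share 17.8% of the exon bases of HOXC4 and 15.7% of those of HOXC6, so part of their reads is uncertain.

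HOXC9, a trunk gene, went from 36.1, 32.4, 37.5, 31.6 and 44.5 to 114, 99.4 and 91.8 at 24 h and from 38.4, 51.5, 41.7, 45.7 and 41.4 to 75.6, 95.4 and 89.3 at 48 h. HOXC10, a lumbar and hindlimb gene, went from 114, 114, 191, 187 and 185 to 273, 293 and 341 and from 121, 106, 190.3, 177 and 181 to 289, 315 and 305. Neither gene's shFLI1 libraries overlapped the controls, and the log2 fold changes were 1.46 (adjusted p = 2.57e-05) and 0.97 (adjusted p = 0.000173) for HOXC9 and 0.96 (adjusted p = 0.00149) and 1.00 (adjusted p = 0.000474) for HOXC10. HOXC5 went from 13, 18.6, 10.1, 8.44 and 6.02 to 26.9, 27.9 and 31 and from 14.3, 23.7, 8.14, 12.1 and 9.81 to 26, 29.9 and 36.3, with 1.36 (adjusted p = 0.00284) and 1.19 (adjusted p = 0.00618), and shares 59.9% of its exon bases with other genes. HOXC12, the highest member of the cluster, overlapped between groups, at 776, 836, 685, 727 and 589 with shScramble and 945, 954 and 715 with shFLI1 at 48 h, with 0.19 (adjusted p = 0.338) and 0.27 (adjusted p = 0.102). HOXC11 was called at 24 h, at 0.69 (adjusted p = 0.00705), and not at 48 h, at 0.14 (adjusted p = 0.43).

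In HOXB, the block from HOXB3 to HOXB6 rose together with HOXB13. HOXB5 stood at 37.1, 57.5, 42.5, 55.9 and 36.1 with shScramble and at 79.6, 98.3 and 105 with shFLI1 at 24 h, and at 49.1, 41.2, 49.9, 48.5 and 44.7 and 86.2, 89.7 and 99.7 at 48 h, without overlap, with 1.04 (adjusted p = 0.000735) and 0.96 (adjusted p = 0.00108). HOXB3 had 0.88 (adjusted p = 0.000477) and 0.76 (adjusted p = 0.00144), and HOXB6 had 0.95 (adjusted p = 4.75e-05) and 0.61 (adjusted p = 0.00311). HOXB4, a haematopoietic stem cell factor, had 0.68 (adjusted p = 0.0244) and 0.78 (adjusted p = 0.00284), and its 24 h call was lost without shScramble replicate 5 at 0.59 (adjusted p = 0.0511), without shFLI1 replicate 2 at 0.67 (adjusted p = 0.0687) and without shFLI1 replicate 3 at 0.51 (adjusted p = 0.13).

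HOXB7, the highest HOXB member, was split by library kind among the controls. With shScramble it stood at 309, 301, 669, 609 and 811 at 24 h and at 285, 275, 798, 625 and 626 at 48 h, low in replicates 1 and 2 and high in replicates 3 to 5 at both times, a log2 difference of -1.19 at 24 h and -1.28 at 48 h. With shFLI1 it stood at 868, 794 and 943 and 596, 574 and 605. limma gave a log2 fold change of 0.80 (adjusted p = 0.0329) at 24 h and 0.31 (adjusted p = 0.368) at 48 h. Against replicates 3 to 5 alone, which are of the same kind as the shFLI1 libraries, it was 0.32 (adjusted p = 0.115) at 24 h. At 48 h all shFLI1 libraries lay below those 3 controls, against the direction of the value from all 5. The 24 h call was also lost without shScramble replicate 1 (0.62, adjusted p = 0.0684) or 2 (0.61, adjusted p = 0.0615) and without shFLI1 replicate 1 (0.79, adjusted p = 0.0778), 2 (0.86, adjusted p = 0.0623) or 3 (0.73, adjusted p = 0.104). HOXC4, HOXC6, HOXD8 and HOXD10 were among other members that did not overlap between the kinds of shScramble library at both times, each in 1 direction. The share of all genes that split in this way was not counted. The part of the library kind in the other results was examined only by 3 alternative fits. These used shScramble replicates 3 to 5 alone, library kind as a term, or only the libraries with fewer pseudogene reads.

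**Figure D3:**
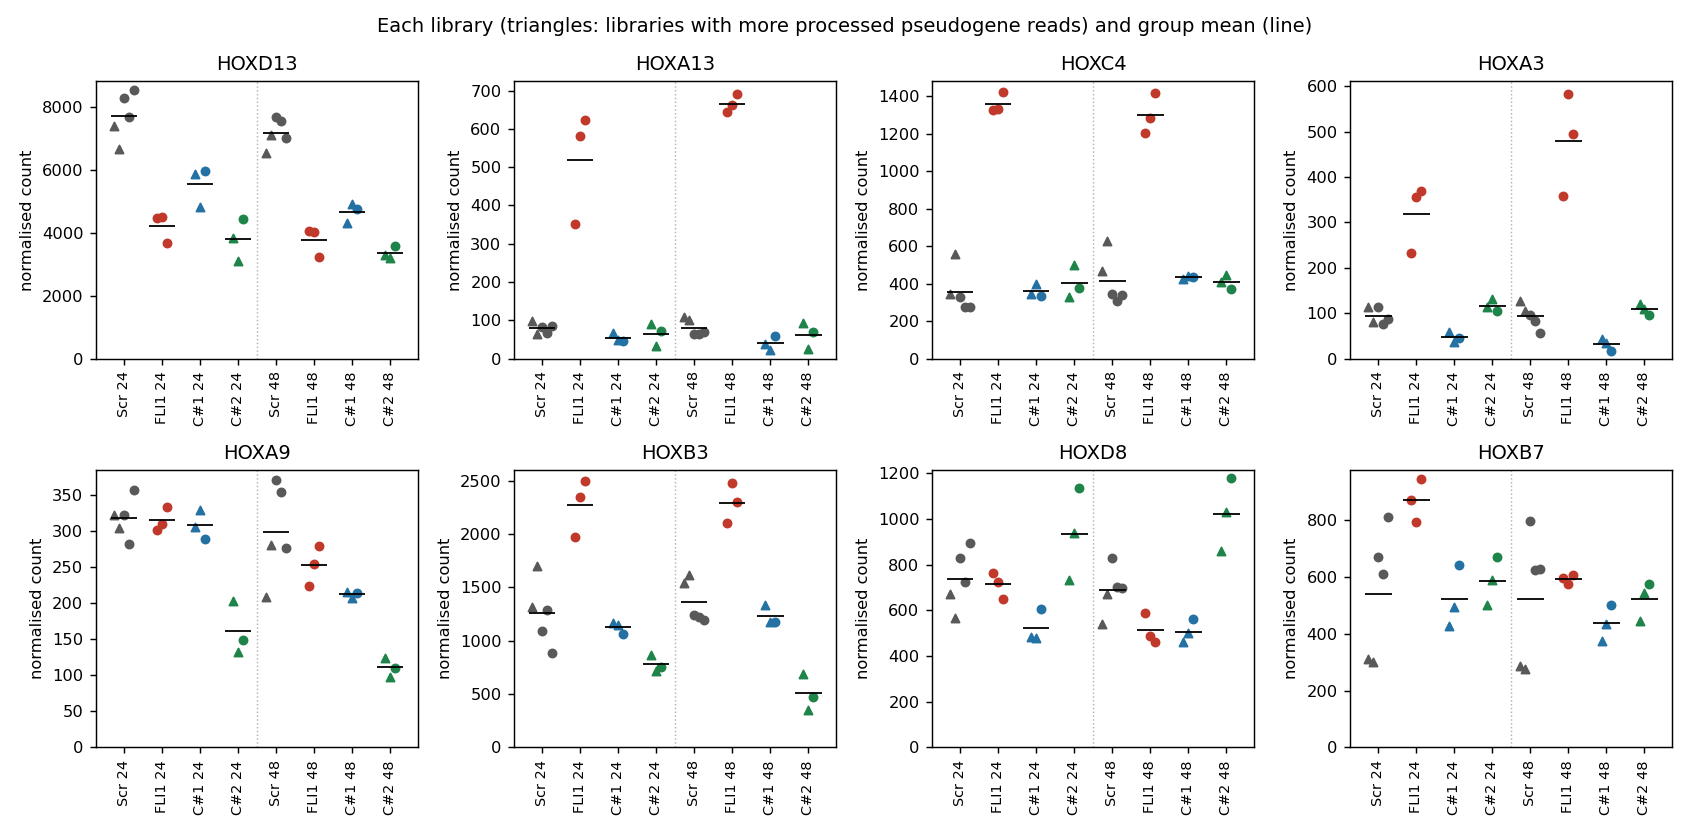
Normalised counts of 8 HOX genes (HOXD13, HOXA13, HOXC4, HOXA3, HOXA9, HOXB3, HOXD8 and HOXB7) in each of the 28 libraries, by hairpin (Scr, FLI1, C#1 and C#2) and time, with triangles for the 12 libraries with more processed pseudogene reads and a line at each group mean. HOXD13 lies below all shScramble points in every knockdown group, HOXA3 is high with shFLI1 and low with shCHD4#1, and HOXB7 splits by library kind; HOXB3 was added after its values were seen.

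Within HOXD, the members called higher with shFLI1 had log2 fold changes of at most 0.73. HOXD10, the next most abundant gene, stood at 5865, 7030.1, 5681, 5273 and 5343 with shScramble and 7942, 8081 and 7384 with shFLI1 at 48 h, above every control, with 0.43 (SE 0.10, adjusted p = 0.0016). At 24 h it overlapped, with 0.24 (adjusted p = 0.139). The ratio of HOXD13 to HOXD10 per kilobase ran from 1.23 to 2.19 over the shScramble libraries and from 0.689 to 0.886 over the shFLI1 libraries at 24 h, and from 1.22 to 1.72 and 0.529 to 0.615 at 48 h, so HOXD10 was above HOXD13 in every shFLI1 library. The same held in every shCHD4#2 library, from 0.390 to 0.730 at 24 h and 0.402 to 0.492 at 48 h, and in every shCHD4#1 library at 48 h, from 0.755 to 0.862, while at 24 h the shCHD4#1 ratio ran from 0.811 to 1.27. HOXD10 and HOXD11 share exon bases with each other, 16.8% of HOXD10 and 21.4% of HOXD11. HOXD11 had 0.27 (adjusted p = 0.126) at 24 h and 0.44 (adjusted p = 0.0076) at 48 h.

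HOXD8 was the other member called lower. At 48 h the values were 540.2, 672, 828, 701 and 699 with shScramble and 587, 488 and 461 with shFLI1, and replicate 1 of each group overlapped the other. limma gave a log2 fold change of -0.03 (adjusted p = 0.88) at 24 h and -0.42 (adjusted p = 0.018) at 48 h. That call was lost without shFLI1 replicate 2, at -0.39 (adjusted p = 0.0635), and without replicate 3, at -0.35 (adjusted p = 0.0825). HOXD9 had 0.27 (adjusted p = 0.0861) at 24 h and 0.27 (adjusted p = 0.0392) at 48 h, and with each library centred on its median gene the 48 h value was 0.15 (adjusted p = 0.22). Its call was also lost when any 1 of shScramble replicates 1, 2, 4 and 5 or shFLI1 replicates 2 and 3 was left out, with adjusted p from 0.0532 to 0.185. No filter, library kind as a term, shScramble replicates 3 to 5 alone and the replicate block each ended it too.

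HOXD3 and HOXD4, the 3' members of the cluster, were called higher at both times. HOXD3 had 0.66 (adjusted p = 0.00111) and 0.49 (adjusted p = 0.00347), and HOXD4 had 0.73 (adjusted p = 0.0144) and 0.46 (adjusted p = 0.0318). The HOXD4 call was lost at 24 h without shFLI1 replicate 2, at 0.63 (adjusted p = 0.0754). At 48 h it was lost with median centring, at 0.34 (adjusted p = 0.092), and without any 1 of shScramble replicates 1 and 5 and shFLI1 replicates 2 and 3, with adjusted p from 0.0614 to 0.112. The 48 h call was also lost with library kind as a term and against shScramble replicates 3 to 5 alone. HOXD3 shares 74.1% and HOXD4 80.5% of exon bases with other annotated genes, so their reads are uncertain.

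The shFLI1 effect was not called different between the times for any HOX member. The test of the difference between the 48 h and 24 h fold changes (limma over 28 libraries) called 0 of 33 members, where 16.7% of all tested genes were called, 7.22% as higher and 9.44% as lower, and 2 members, HOXC9 and HOXC11, had an unadjusted p under 0.05. edgeR and DESeq2 on the recovered reads also called 0. HOXC11 had a difference of -0.56 (adjusted p = 0.125). Without shScramble replicate 5 at 24 h, limma called 1 member lower.

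The 4 members below the filter are given as values. HOXA4 stood at 4.46, 2.06, 5.09, 2.80 and 2.18 with shScramble and 17.7, 20.7 and 18.7 with shFLI1 at 48 h, without overlap, and a fit with no filter gave 2.27 (adjusted p = 9.83e-05), and 1.45 (adjusted p = 0.00531) at 24 h. HOXA7 went from a mean of 1.57 to 11.3 at 48 h, with 2.47 (adjusted p = 0.00179) in that fit, but HOXA-AS3 covers 62.5% of its exon bases on the other strand. HOXB2 and HOXB8 were not called in it, at 0.36 (adjusted p = 0.634) and 0.57 (adjusted p = 0.268) at 48 h.

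With the CHD4 hairpins, fewer HOX members were called than with shFLI1, and the hairpins differed in which ones. More members fell than rose, as did more of all tested genes with each hairpin at each time. HOXD13 fell with both hairpins at both times, and HOXB13 fell with both at 48 h. At 24 h shCHD4#1 lowered 5 members and raised 0, where 11.3% of all genes were called, 5.21% as higher and 6.14% as lower. shCHD4#2 lowered 6 and raised 2 at 24 h, where 11.1% were called, 4.05% as higher and 7.01% as lower. At 48 h shCHD4#1 lowered 13 and raised 2, where 28.4% were called, 12.9% as higher and 15.5% as lower, and shCHD4#2 lowered 8 and raised 5, where 37.9% were called, 17.5% as higher and 20.3% as lower. For shCHD4#2 at 48 h the shares of members lowered and raised were thus near those of all genes. The median log2 fold change of the members was -0.26 and 0.01 at 24 h and -0.43 and 0.02 at 48 h for shCHD4#1 and shCHD4#2. All these comparisons, and those of shFLI1, share the 5 shScramble libraries of their time.

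Of the CHD4 calls at 24 h, those of HOXD13, HOXA9 and HOXA10 with shCHD4#2 stayed under every alternative run, and the counts of members moved with single libraries. Same-numbered libraries of shScramble and the CHD4 hairpins deviated together, and with the replicate number as a block shCHD4#1 lowered 3 members at 24 h. Without shCHD4#1 replicate 2 it lowered 0, without shScramble replicate 3 it lowered 2 and without shScramble replicate 5 it lowered 3. Without shScramble replicate 2 it raised 1. The count of members that shCHD4#2 raised at 24 h went from 2 to 0 without its replicate 2 and to 1 without shScramble replicate 3, 4 or 5. The count raised by shCHD4#1 at 48 h, 2 as fitted, was 0 with the block, 1 without shScramble replicate 2 or shCHD4#1 replicate 1, and 0 without any other single library of either group. Within the libraries with fewer pseudogene reads, which leave 1 library per CHD4 hairpin and assume that it varies like the other groups, shCHD4#1 lowered 0 members at 24 h and 8 at 48 h, and shCHD4#2 lowered 3 and 7.

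HOXD13 stood at 5869, 4814 and 5962 with shCHD4#1 and at 3824, 3117 and 4431 with shCHD4#2 at 24 h, and at 4300.4, 4921 and 4761 and 3312, 3193 and 3588 at 48 h, against the control values above. No CHD4 library reached a control library at either time. The log2 fold change was -0.48 (SE 0.13, adjusted p = 0.0235) and -1.04 (SE 0.13, adjusted p = 0.000155) at 24 h and -0.62 (SE 0.09, adjusted p = 0.000196) and -1.09 (SE 0.09, adjusted p = 1.21e-06) at 48 h. At 24 h the shCHD4#1 call was lost without shCHD4#1 replicate 2, at -0.38 (adjusted p = 0.163), without shScramble replicate 3, at -0.45 (adjusted p = 0.0546), and within the libraries with fewer pseudogene reads, at -0.45 (adjusted p = 0.105). shCHD4#2 lowered HOXD13 further than shCHD4#1, and the difference was 0.56 (adjusted p = 0.0216) at 24 h and 0.47 (adjusted p = 0.00246) at 48 h. The 24 h difference was lost without shCHD4#1 replicate 1 (0.51, adjusted p = 0.0687) or 3 (0.50, adjusted p = 0.0787) and without shCHD4#2 replicate 2 (0.42, adjusted p = 0.11).

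HOXD13 was the 1 tested HOX gene called lower with all 3 knockdown hairpins. The share of all genes called lower with all 3, which are set against the same controls, was not counted. At 48 h 31.7% of all genes were lower with shFLI1, 15.5% with shCHD4#1 and 20.3% with shCHD4#2. The difference between shFLI1 and the mean of both CHD4 hairpins was -0.12 (95% interval -0.38 to 0.14, adjusted p = 0.444) at 24 h and -0.07 (95% interval -0.26 to 0.11, adjusted p = 0.478) at 48 h. Neither difference passed the test, and both intervals hold values of either sign. CHD4 itself was not lower with shFLI1, at 0.34 (adjusted p = 0.0176) at 24 h and 0.18 (adjusted p = 0.139) at 48 h.

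**Figure D4:**
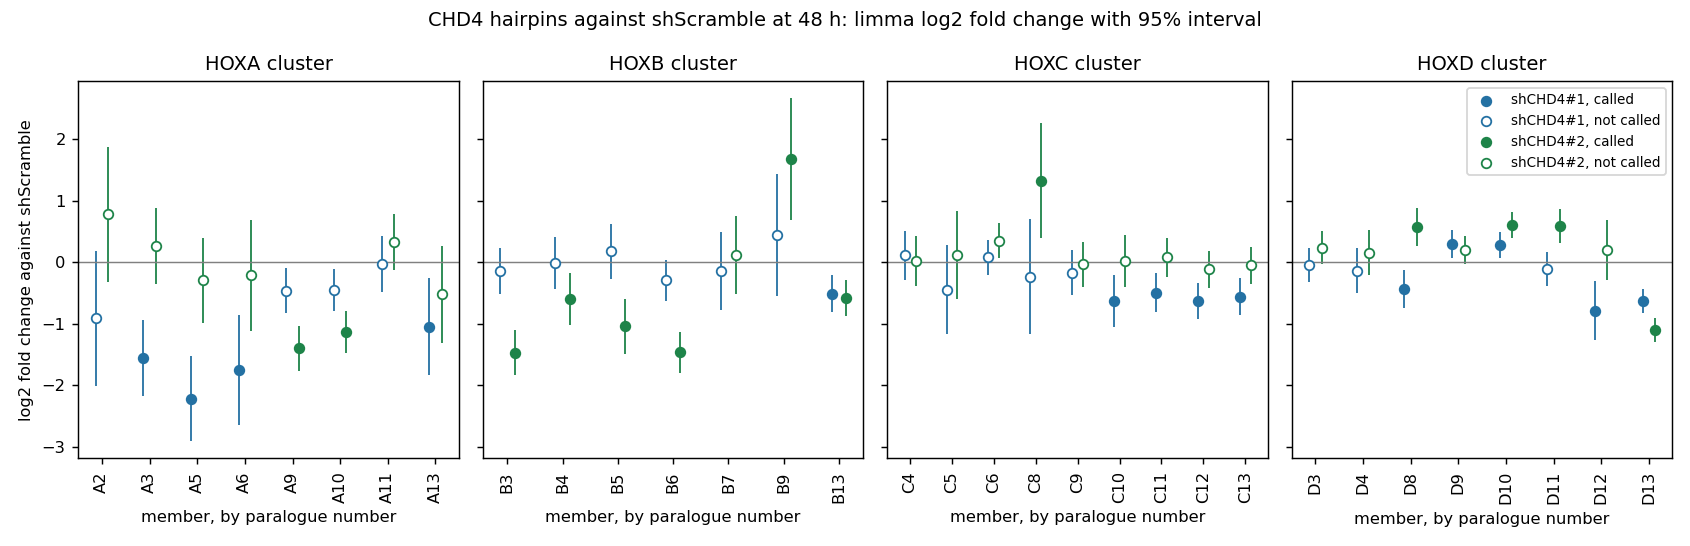
The log2 fold change of shCHD4#1 and of shCHD4#2 against shScramble at 48 h for the tested HOX members reported here, in genomic order within the clusters, from limma with 95% intervals, with filled points for adjusted p under 0.05. HOXD13 lies below 0 with both hairpins, HOXA3, HOXA5 and HOXA6 were called lower with shCHD4#1, and HOXA9, HOXA10 and HOXB3 to HOXB6 with shCHD4#2, while HOXB9 stands highest at 1.67 with shCHD4#2.

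HOXB13 and HOXD10 were the other members that both hairpins moved in 1 direction at 48 h. HOXB13 stood at 586, 616 and 644 with shCHD4#1 and 595, 499 and 676 with shCHD4#2, below every control, with -0.51 (adjusted p = 0.0135) and -0.58 (adjusted p = 0.00458). With the block the shCHD4#1 value was -0.45 (adjusted p = 0.0749). At 24 h HOXB13 had -0.50 (adjusted p = 0.0294) with shCHD4#1 and -0.25 (adjusted p = 0.282) with shCHD4#2, and with the block the former was -0.39 (adjusted p = 0.0504). That 24 h call was also lost without any 1 of shScramble replicates 3, 4 and 5 and shCHD4#1 replicates 1 and 2, with adjusted p from 0.0573 to 0.147. HOXD10 stood at 6848, 7773 and 6635 with shCHD4#1, overlapping the controls, and at 8085, 9536 and 8902 with shCHD4#2, above all of them. Its log2 fold change was 0.28 (adjusted p = 0.043) and 0.60 (adjusted p = 0.000294), and with the block the shCHD4#1 value was 0.20 (adjusted p = 0.115). The shCHD4#1 call was also lost without any 1 library of either group but shScramble replicate 2, with adjusted p from 0.0548 to 0.208. At 24 h HOXD10 was called with shCHD4#2, at 0.51 (adjusted p = 0.021), and lost without its replicate 2, at 0.37 (adjusted p = 0.16).

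The hairpins parted at the 3' end of HOXA. HOXA3 stood at 43.2, 35 and 17.8 with shCHD4#1 and at 121, 109 and 96.9 with shCHD4#2 at 48 h. All shCHD4#1 values were below the controls and the shCHD4#2 values lay among them, with -1.55 (SE 0.29, adjusted p = 0.0013) and 0.27 (SE 0.29, adjusted p = 0.5). At 24 h shCHD4#1 gave 59, 37.2 and 44.7, with -0.99 (adjusted p = 0.00736), which was lost without shCHD4#1 replicate 2 at -0.84 (adjusted p = 0.0614). The difference between the hairpins was -1.32 (adjusted p = 0.00307) at 24 h and -1.82 (adjusted p = 0.000692) at 48 h.

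HOXA5 and HOXA6 showed the same split. HOXA5 stood at 1.66, 0.974 and 2.96 with shCHD4#1 and 14.3, 9.03 and 6.32 with shCHD4#2 at 48 h, with -2.21 (adjusted p = 0.000213) against the control for shCHD4#1, -0.29 (adjusted p = 0.506) for shCHD4#2 and -1.92 (adjusted p = 0.00103) between them. Its shCHD4#1 libraries lay below all shScramble and shCHD4#2 libraries. They rest on 6 reads in all at 48 h, so the size of the fall is imprecise. HOXA6 had -1.75 (adjusted p = 0.0066) with shCHD4#1 and -1.53 (adjusted p = 0.0188) between hairpins, the latter lost without shCHD4#1 replicate 2 (-1.18, adjusted p = 0.089) or shCHD4#2 replicate 1 (-1.10, adjusted p = 0.078) or 3 (-1.46, adjusted p = 0.0592). At 24 h HOXA5 had -1.49 (adjusted p = 0.00661) and HOXA6 -1.001 (adjusted p = 0.0328) with shCHD4#1. The former was lost without shCHD4#1 replicate 2, at -1.14 (adjusted p = 0.0542). With the block HOXA6 had -1.04 (adjusted p = 0.0692), and without any 1 of shScramble replicates 1, 3 and 5 and shCHD4#1 replicates 2 and 3 its adjusted p ran from 0.0543 to 0.186. No filter, edgeR and DESeq2 each ended this HOXA6 call too. HOXA13 had -1.04 (adjusted p = 0.0474) with shCHD4#1 at 48 h, which was lost without any 1 library of either group but shCHD4#1 replicate 3, with adjusted p from 0.0527 to 0.247. That call was also lost with library kind as a term and against shScramble replicates 3 to 5 alone. It was lost too with no filter, with edgeR and with the replicate block without shFLI1 libraries. Its 48 h controls with more pseudogene reads stood at 101 to 109 and the others at 63.5 to 68.7.

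shCHD4#2 lowered other members: HOXA9 and HOXA10 of the posterior HOXA genes and the block from HOXB3 to HOXB6. HOXA9, known from acute leukaemia, stood at 209, 280.4, 371, 355 and 277 with shScramble, 216, 207 and 213 with shCHD4#1 and 125, 97.6 and 111 with shCHD4#2 at 48 h. Every shCHD4#2 value was below every value of the other groups. The log2 fold change with shCHD4#2 was -0.99 (SE 0.14, adjusted p = 0.00041) at 24 h and -1.40 (SE 0.17, adjusted p = 2.95e-05) at 48 h, and with shCHD4#1 -0.04 (adjusted p = 0.877) and -0.46 (adjusted p = 0.0583). The hairpins differed by 0.95 (adjusted p = 0.00175) and 0.94 (adjusted p = 0.00178). HOXA10, named here after its values were seen, had -0.75 (adjusted p = 0.00176) and -1.14 (adjusted p = 9.4e-05) with shCHD4#2 and shares exon bases with HOXA10-AS, as HOXA9 does.

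HOXB3 stood at 1545, 1615, 1237, 1225 and 1191 with shScramble, 1336, 1173 and 1174 with shCHD4#1 and 692, 354 and 475 with shCHD4#2 at 48 h. The shCHD4#1 libraries lay at or just under the low end of the controls, apart from replicate 1 among them, and those of shCHD4#2 lay below both groups, with -0.14 (adjusted p = 0.583) and -1.47 (SE 0.17, adjusted p = 2.1e-05). HOXB6 stood at 531, 526, 454, 409.7 and 432, 403, 348 and 397 and 231, 134 and 156 in the same order, with -1.46 (adjusted p = 9.51e-06) for shCHD4#2. The hairpins differed at 48 h by 1.33 (adjusted p = 0.000162) for HOXB3, 1.17 (adjusted p = 0.000187) for HOXB6 and 1.22 (adjusted p = 0.00122) for HOXB5. HOXB3 and HOXB6 share exon bases with each other and with HOXB-AS3, and both were named after their values were seen. At 24 h with shCHD4#2, HOXB6 had -0.74 (adjusted p = 0.00278), HOXB5 -0.75 (adjusted p = 0.029) and HOXB3 -0.66 (adjusted p = 0.018). The HOXB3 call was lost without shCHD4#2 replicate 2 (-0.60, adjusted p = 0.105) or 3 (-0.64, adjusted p = 0.0549), and the HOXB5 call without any 1 of shScramble replicates 2 and 4 and shCHD4#2 replicates 1 and 2, with adjusted p from 0.0532 to 0.153. HOXB4 had -0.60 (adjusted p = 0.0259) at 48 h, and -0.64 (adjusted p = 0.0707) with the block and -0.53 (adjusted p = 0.0995) without shCHD4#2 replicate 2. Its call was also lost with no filter, against shScramble replicates 3 to 5 alone and with DESeq2.

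HOXD8 went in opposite directions with the hairpins. At 48 h the values were 460.1, 498 and 560.3 with shCHD4#1 and 860.4, 1029 and 1179 with shCHD4#2, beside 540.2, 672, 828, 701 and 699 with shScramble. The shCHD4#2 values were above every control, and replicate 3 of shCHD4#1 reached into the control range. limma gave a log2 fold change of -0.43 (adjusted p = 0.0341) and 0.57 (adjusted p = 0.00584), and the difference between the hairpins -0.82 (adjusted p = 0.0112) at 24 h and -1.01 (adjusted p = 0.000293) at 48 h. With the block the shCHD4#1 value was -0.41 (adjusted p = 0.087), and it was also lost without any 1 of shScramble replicates 3, 4 and 5 and shCHD4#1 replicates 1 and 2, with adjusted p from 0.062 to 0.125. The 24 h difference was lost without shCHD4#1 replicate 2 (-0.76, adjusted p = 0.0592) or shCHD4#2 replicate 3 (-0.67, adjusted p = 0.0512).

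Of the 5 tested posterior HOXC genes, 4 fell with shCHD4#1 at 48 h and HOXC9 was not called, at -0.17 (adjusted p = 0.493). HOXC12 stood at 508, 435 and 449.6 with shCHD4#1 and 574, 660.4 and 763 with shCHD4#2, beside 776, 836, 685, 727 and 589 with shScramble, and every shCHD4#1 library was below every control. The values were -0.63 (adjusted p = 0.00364) for HOXC12, -0.56 (adjusted p = 0.00891) for HOXC13, -0.50 (adjusted p = 0.0212) for HOXC11 and -0.64 (adjusted p = 0.0267) for HOXC10. With the block HOXC11 had -0.41 (adjusted p = 0.062) and HOXC10 -0.47 (adjusted p = 0.0958). HOXC10 also lost its call without any 1 of shScramble replicates 3, 4 and 5 and shCHD4#1 replicates 2 and 3 (adjusted p from 0.0598 to 0.125), and HOXC11 without any 1 of shScramble replicate 3 and shCHD4#1 replicates 1 and 2 (adjusted p from 0.0504 to 0.094). With shCHD4#2 none of HOXC10, HOXC11, HOXC12 and HOXC13 was called by limma, and their unadjusted p-values ran from 0.408 to 0.905.

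The other members called at 48 h were few. HOXD12 was lower with shCHD4#1, at -0.79 (adjusted p = 0.0175). Its call was lost without shCHD4#1 replicate 3, at -0.63 (adjusted p = 0.0894), and against shScramble replicates 3 to 5 alone. HOXD9 was higher with shCHD4#1, at 0.30 (adjusted p = 0.0483), and at 0.30 (adjusted p = 0.137) with the block. That HOXD9 call was lost without any 1 library of either group but shCHD4#1 replicate 1, with adjusted p from 0.063 to 0.216. It was also lost with no filter and against shScramble replicates 3 to 5 alone. HOXB9 was higher with shCHD4#2, at 1.67 (adjusted p = 0.0109), HOXD11 at 0.58 (adjusted p = 0.00246) and HOXC8 at 1.32 (adjusted p = 0.0274), the last at 1.09 (adjusted p = 0.063) with the block. The HOXC8 call was also lost without any 1 of shScramble replicates 3 and 4 and the 3 shCHD4#2 libraries, with adjusted p from 0.0517 to 0.101. The values of HOXB9 and HOXC8 rest on low levels, with 32.3, 38.8 and 31.6 normalised counts for HOXC8 with shCHD4#2.

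Compared directly, shCHD4#1 was higher than shCHD4#2 for 4 members and lower for 6 at 24 h, where 9.62% of all genes were called, 5.62% as higher and 4% as lower. At 48 h it was higher for 7 and lower for 14, where 37.9% were called, 19.2% as higher and 18.6% as lower. By cluster at 48 h, shCHD4#1 was higher for 2 HOXA, 4 HOXB, 0 HOXC and 1 HOXD members and lower for 5, 0, 5 and 4. CHD4 itself stood at 3189 ± 267 with shCHD4#1 and 2749.9 ± 44.1 with shCHD4#2 at 48 h, a log2 difference of 0.21 (adjusted p = 0.164) that did not pass the test. The 14 became 9 without shCHD4#1 replicate 2 and 7 without shCHD4#2 replicate 3. The 24 h counts became 2 higher without shCHD4#1 replicate 1 or 3 or shCHD4#2 replicate 2, and lower for 1 without shCHD4#1 replicate 2, for 3 without shCHD4#2 replicate 2 and for 2 without shCHD4#2 replicate 3.

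Against the mean of both CHD4 hairpins, shFLI1 was higher for 24 members and lower for 0 at 24 h, where 52.9% of all genes were called, 28% as higher and 24.8% as lower. At 48 h it was higher for 23 and lower for 4, where 65.7% were called, 32.9% as higher and 32.8% as lower. All 8 tested members of paralogue groups 1 to 4 were higher at each time, HOXA2 included, which passed the filter only through shFLI1. The largest difference was that of HOXA13, at 3.14 (adjusted p = 5e-07) and 3.84 (adjusted p = 3.36e-07), followed at 48 h by HOXA2 at 3.09 (adjusted p = 7.38e-05) and HOXA3 at 3.01 (adjusted p = 3.43e-07). The 4 lower at 48 h were HOXC8, HOXB9, HOXA11 and HOXD8, and 2 were lower without shFLI1 replicate 1. HOXB9 had -1.16 (adjusted p = 0.0331), and the adjusted p was 0.0506 with the replicate block. At 24 h limma, edgeR and DESeq2 each called 0 members lower, limma gave 25 members of either sign an unadjusted p under 0.05, and the lowest value was that of HOXB9, at -0.92 (adjusted p = 0.137).

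The non-coding genes of the clusters also rose with shFLI1. Of 19 listed, 17 had a row, and 10 of 11 tested at 24 h and 9 of 11 at 48 h were higher and 0 lower, with median log2 fold changes of 1.51 and 1.57, beside 24.2% and 32.2% of all genes higher. The shFLI1 libraries count in the filter mean, so low genes that rose with shFLI1 were tested where other low genes were left out. HOTTIP, at 1.65 and 3.41 with shScramble and 41.7 and 49.3 with shFLI1, passed only through it. HOXB-AS3 and HOXA11-AS did so too, and the counts and medians are tilted towards rises. HOXA-AS2, antisense to HOXA3 and HOXA4, went from a mean of 21.6 to 298 at 24 h and from 21.9 to 745 at 48 h, with 3.73 (adjusted p = 8.08e-07) and 5.10 (adjusted p = 1.69e-08). HOTAIR, transcribed between HOXC11 and HOXC12, had 1.47 (adjusted p = 3.36e-06) and 1.04 (adjusted p = 1.04e-06), HOTAIRM1 of the HOXA cluster had 1.51 (adjusted p = 0.000976) and 1.90 (adjusted p = 1.92e-06), and HOXC-AS3 had 2.21 (adjusted p = 0.000242) and 2.02 (adjusted p = 7.35e-06). With shCHD4#1 at 48 h, 4 of the 11 were lower, HOXA-AS2 with -2.35 (adjusted p = 0.000252) and HOTAIRM1 with -1.71 (adjusted p = 5.61e-05) among them, as HOXA3 was. With shCHD4#2 at 48 h, 2 were higher and 2 lower. At 24 h limma called 0 of the 11 with either CHD4 hairpin.

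Genes listed as neighbours of the clusters were also higher with shFLI1, 14 of 19 tested with 1 lower at 24 h, and 11 with 1 lower at 48 h, where 24.2% and 32.2% of all genes were higher. NFE2, SKAP1 and SNX10, at 4.53, 4.14 and 6.94 with shScramble at 24 h, passed the filter only through shFLI1. These counts are thus also tilted towards rises. Their distances from the clusters were not measured, and not all of them lie directly beside a cluster. CALCOCO1, beside HOXC, had 1.95 (adjusted p = 8.47e-08) and 3.42 (adjusted p = 2.62e-10), and was also higher with shCHD4#1, with 0.86 (adjusted p = 0.0014) and 1.17 (adjusted p = 7.53e-05). PRAC1, beside HOXB13, had 1.37 (adjusted p = 3.29e-06) and 1.54 (adjusted p = 3.9e-06), and NFE2 had 3.34 (adjusted p = 9.34e-06) and 4.30 (adjusted p = 1.16e-06). ATP5MC3, listed for HOXD but not directly beside it, was lower at 48 h, at -1.11 (adjusted p = 1.02e-06). EVX2, a homeobox gene next to HOXD13, was not called, at 0.07 (adjusted p = 0.767) and -0.15 (adjusted p = 0.494). The CHD4 hairpins called few of the 19 at 24 h, 1 higher and 2 lower with shCHD4#1 and 0 with shCHD4#2, and at 48 h 1 higher and 6 lower, and 0 higher and 5 lower. Of all genes 15.5% were lower with shCHD4#1 and 20.3% with shCHD4#2 at 48 h, and 12.9% and 17.5% were higher. At 24 h 5.21% of all genes were higher and 6.14% lower with shCHD4#1, and 11.1% were called with shCHD4#2.

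Among HOX cofactors of the TALE homeobox class, which bind DNA together with HOX proteins, 4 of 10 were higher and 1 lower with shFLI1 at 24 h, where 24.2% and 22.5% of all genes were, and 9 higher and 1 lower at 48 h, where 32.2% and 31.7% were. MEIS2 went from a mean of 6976 to 15247 at 24 h, at 1.16 (adjusted p = 0.000491), and from 6399 to 30798 at 48 h, at 2.27 (adjusted p = 9.07e-10). MEIS3 had 1.59 (adjusted p = 6.24e-07) and 2.70 (adjusted p = 3.82e-08), MEIS1 0.49 (adjusted p = 0.0207) and 0.55 (adjusted p = 9.96e-05), and PKNOX2 0.41 (adjusted p = 0.26) and 1.21 (adjusted p = 0.00019). shCHD4#1 called 1 higher at 24 h and 2 lower at 48 h, and shCHD4#2 1 higher at 24 h and 2 higher and 2 lower at 48 h, PKNOX2 at -1.30 (adjusted p = 0.000342) among the latter. Of all genes 5.21% were higher with shCHD4#1 and 4.05% with shCHD4#2 at 24 h. At 48 h 15.5% were lower with shCHD4#1. With shCHD4#2 at 48 h 17.5% were higher and 20.3% lower, so its counts there were near those of all genes.

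Genes of the retinoic acid pathway and the CDX factors, inputs that set HOX expression in embryos, were mostly higher with shFLI1, 10 of 14 with 2 lower at 24 h and 12 with 2 lower at 48 h, beside 24.2% and 32.2% of all genes higher. Of 19 with a row, 14 passed the filter, in whose mean the shFLI1 libraries count. STRA6, the retinol transporter, had 2.52 (adjusted p = 3.48e-09) and 2.84 (adjusted p = 2.23e-11), ALDH1A1, a retinaldehyde dehydrogenase, had 2.00 (adjusted p = 1.02e-08) and 2.19 (adjusted p = 5.3e-09), and CRABP2, a retinoic acid carrier, had 2.25 (adjusted p = 7.48e-05) and 5.34 (adjusted p = 1.34e-08). DHRS3, which reduces retinaldehyde, went from a mean of 16.2 to 113 at 24 h and from 19.5 to 3904 at 48 h, at 2.67 (adjusted p = 4.76e-05) and 7.48 (adjusted p = 3.51e-10). CRABP2 was also higher with shCHD4#1, at 2.41 (adjusted p = 0.000532) and 3.80 (adjusted p = 8.63e-06), whereas STRA6 was called with neither CHD4 hairpin. The counts were 1 higher and 1 lower with shCHD4#1 and 1 higher and 4 lower with shCHD4#2 at 24 h, and 2 higher and 1 lower, and 2 higher and 6 lower, at 48 h. Of all genes, 5.21% were higher and 6.14% lower with shCHD4#1 and 4.05% and 7.01% with shCHD4#2 at 24 h. The shares at 48 h were 12.9% and 15.5% with shCHD4#1 and 17.5% and 20.3% with shCHD4#2.

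Among chromatin regulators that hold HOX genes on or off, the counts with shFLI1 are read beside the 24.2% of all genes higher and 22.5% lower at 24 h and the 32.2% and 31.7% at 48 h. A trithorax list held 14 regulators that keep HOX genes active. It took in H3K27 demethylases and genes outside the trithorax group proper, such as AFF1, DOT1L and MLLT1. Of the 14, 2 were higher and 5 lower with shFLI1 at 24 h and 4 higher and 7 lower at 48 h. AFF1 had 0.99 (adjusted p = 8.44e-07) and 1.55 (adjusted p = 2.85e-08), and WDR5, a core subunit of the histone H3K4 methyltransferases, had -0.93 (adjusted p = 1.55e-06) and -1.19 (adjusted p = 4.05e-08). DOT1L had -0.36 (adjusted p = 0.00479) and -0.69 (adjusted p = 1.44e-05), and MLLT1 -0.46 (adjusted p = 0.000167) and -0.44 (adjusted p = 0.000206). Of 20 Polycomb genes, which keep them silent, 5 were higher and 4 lower at 24 h, shares near those of all genes, and 10 higher and 7 lower at 48 h. PHF19 had 1.27 (adjusted p = 3.1e-06) and 1.80 (adjusted p = 6.75e-07) and RING1 0.57 (adjusted p = 0.000214) and 1.06 (adjusted p = 4.5e-08), while EZH2, the histone H3K27 methyltransferase, had -0.44 (adjusted p = 0.00377) and -0.97 (adjusted p = 1.18e-06). With the CHD4 hairpins at 48 h, 2 genes of the trithorax list were higher and 3 lower with shCHD4#1 and 1 higher and 9 lower with shCHD4#2. Of the Polycomb genes 2 were higher and 4 lower with shCHD4#1 and 3 higher and 7 lower with shCHD4#2. Of all genes 12.9% were higher and 15.5% lower with shCHD4#1 and 17.5% and 20.3% with shCHD4#2. At 24 h the trithorax counts were 0 higher and 1 lower with each hairpin, and the Polycomb counts 0 higher and 2 lower with shCHD4#1 and 2 higher and 4 lower with shCHD4#2. Of all genes, 5.21% were then higher and 6.14% lower with shCHD4#1, and 4.05% and 7.01% with shCHD4#2.

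The authors' deposited tables, for which no source used here gives the test settings, called fewer members. Their calls are unlike the limma calls against 0. HOXD13 with shCHD4#1 at 48 h stood there at -0.57 with an SE of 0.0848 and was not called. Their counts and those of limma are therefore not on 1 threshold. Some fold changes differ as well. With shFLI1 at 48 h HOXD13 stood at -1.21 there against -0.93 from limma, and HOXD8 at -0.73 against -0.42. In the authors' deposited table for shFLI1 at 48 h, 5 of the 37 members had an adjusted p under 0.05 as higher, HOXA13 at 2.94, HOXA2 at 2.92, HOXA3 at 2.44, HOXC4 at 1.69 and HOXC6 at 1.10, and HOXD13 was lower at -1.21 (adjusted p = 2.07e-07). In the authors' deposited tables for shCHD4#2, HOXD13 was lower at 24 h, at -0.98, and HOXA9, HOXA10, HOXB3, HOXB6 and HOXD13 at 48 h. In the authors' deposited tables for shCHD4#1, 0 members were called at 24 h, and HOXA3 was among those lower at 48 h, at -1.64.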

How the data were processed

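RNA from 28 SK-N-MC libraries was sequenced as stranded, paired-end total RNA, per the labels' protocols. The submitters' processing notes name FastQC 0.11.7, HISAT2 2.1.0, SAMtools 1.7, featureCounts 1.6.0, DESeq2 1.34.0 and GRCh38, while no source used here gives the strand setting or the annotation release. The deposited expression values are a signal, that is gene read counts which were scaled with a single size factor for each library. Whole reads were recovered from the deposited values for 100% of them within a tolerance of 0.02, with 46102707 to 64775441 reads per library, so counting error is small for the abundant members and large for those with few reads. The authors' deposited tables of comparisons hold a log2 fold change, a p-value and an adjusted p per gene. The one named for shFLI1 at 24 h was not used, since its values follow another comparison.

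Groups were taken from the labels. Values were tested as log2(value + 1) with limma 3.58.1 in R 4.3.3, for 21025 genes with a mean of at least 10, in 1 fit per time of 4 hairpin groups, and a log2 fold change on this scale understates that of low genes. p-values were adjusted by Benjamini-Hochberg over all tested genes and called at 0.05. The test was tested on simulated data first. Levels between genes are per kilobase of exon, from GENCODE 29 gene models, and promoter windows are from RefSeq on GRCh38.p14. The members and lists were chosen with earlier results of these data known. The text names the highest member of each cluster per length in shScramble, up to 12 members called with shFLI1 by size of change, every member called lower with shFLI1, every member called with both CHD4 hairpins in 1 direction, and from each list the genes of smallest adjusted p, at most 4. Other members named with their own values were chosen after the values were seen. The values of 1 member are not reported here, and it stays in the counts and medians over the members.

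Same-numbered libraries of shScramble and the CHD4 hairpins deviated together, with every correlation of their deviations from the group means over 0.1, whereas 1 of 18 such pairs with shFLI1 was over 0.1, so a replicate block is given beside results of the CHD4 hairpins where it changes a call. Alternatives were a pseudocount of 5, no filter, median centring, library kind as a term, shScramble replicates 3 to 5 alone, the replicate block, edgeR 4.0.16 and DESeq2 1.42.0 on the recovered reads, and leaving out each library. Using the libraries with fewer pseudogene reads alone, and the replicate block without the shFLI1 libraries, were chosen after seeing the data.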

Additional observations from a re-analysis of the deposited data

Results flagged for a closer look

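HOXC4 in replicate 2 of shScramble at 24 h stood at 556 normalised counts, where the other 4 libraries of that group ran from 273 to 343. Its gap to the nearest library was 0.754 of the whole range, above the limit of 0.71 for 5 libraries. It was 1 of 66 groups of 5 libraries so checked, and chance alone gives about 1 in 20. The value lies below every shFLI1 library.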

How the results depend on the processing

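Of 166 called log2 fold changes of HOX members, 103 stayed called under every alternative run, and 0 of 2750 values under an alternative changed sign after a call. With shFLI1, 17 of 21 calls at 24 h and 18 of 22 at 48 h stayed. With the CHD4 hairpins 0 of 5 (shCHD4#1) and 3 of 8 (shCHD4#2) stayed at 24 h, and 4 of 15 and 10 of 13 at 48 h. The counts that moved by over 1.5 times are as follows, and the cause was not tested. Members raised by shCHD4#1 at 24 h, 0 as fitted, were 1 with library kind as a term, with shScramble replicates 3 to 5 alone, with DESeq2 and with the replicate block without shFLI1 libraries, and 0 to 1 with a library left out. Those it lowered, 5, were 9 with shScramble replicates 3 to 5 alone, 3 with the replicate block, 0 within the libraries with fewer pseudogene reads, and 0 to 7 with a library left out. Members raised by shCHD4#2 at 24 h, 2, were 5 with the kind term, 5 with the replicate block without shFLI1 libraries, 0 within the libraries with fewer pseudogene reads and 0 to 3 with a library left out, and those lowered, 6, were 3 within those libraries. At 48 h, members raised by shCHD4#1, 2, were 0 with no filter, with either replicate block, and 0 to 1 with a library left out, those lowered, 13, were 8 within the libraries with fewer pseudogene reads, and those raised by shCHD4#2, 5, were 8 with shScramble replicates 3 to 5 alone. Members lowered by shFLI1 at 48 h, 2, were 1 to 2 with a library left out. Between the CHD4 hairpins at 24 h, the 4 higher were 0 within the libraries with fewer pseudogene reads and 2 to 3 with a library left out, and the 6 lower were 10 with the kind term, 10 with the replicate block without shFLI1 libraries, 0 within those libraries and 1 to 7 with a library left out, and the 14 lower at 48 h were 7 to 12. For shFLI1 against the mean of the CHD4 hairpins, 0 lower at 24 h were 2 with the kind term and 4 lower at 48 h were 2 to 4 with a library left out. For the change of the shFLI1 effect with time, 0 lower were 1 with the kind term, 1 with the replicate block and 0 to 1 with a library left out. The shFLI1 libraries share only a number with the others. With the replicate block shFLI1 raised 22 and lowered 1 member at 24 h and raised 19 and lowered 3 at 48 h. The block ended no other call of the CHD4 hairpins against shScramble than those given beside their values, and with it shCHD4#2 raised 3 members at 24 h, against 2 without. Low read numbers limit HOXA2, HOXA5, HOXB9 and HOXC8.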
